A study of Mus musculus with 18 samples.

Results

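The genes described here carry glucose into the cell and break it down to lactate: the transporter gene Slc2a1, the hexokinase genes Hk1 and Hk2, the phosphofructokinase genes Pfkl and Pfkp, and the genes of aldolase (Aldoa), phosphoglycerate kinase (Pgk1), enolase (Eno1), pyruvate kinase (Pkm) and lactate dehydrogenase (Ldha). They were chosen by gene symbol from the platform annotation of the deposited table. A row was named for 9 of these 10 genes, 1 row each, out of 24705 rows with 1 gene symbol; Eno1 was not analysed here. Expression was measured on Affymetrix arrays in 18 samples of mouse bone marrow-derived macrophages, cells grown from marrow with M-CSF at 30 ng/mL. On day 4 the medium was replaced by one in which 10% plasma stood in for fetal calf serum, and the RNA was collected on day 6, after 48 hours in plasma. The groups differ in the genotype of the mice that gave the plasma, all of which had eaten a Western diet for 8 weeks: wildtype C57BL/6J (WT, 4 arrays), ApoE-KO C57BL/6J, which lack apolipoprotein E (ApoE, 5 arrays), and ApoE-Stab1-KO (AS1, 3 arrays) and ApoE-Stab2-KO C57BL/6J (AS2, 6 arrays), which lack apolipoprotein E and also stabilin-1 or stabilin-2, scavenger receptors that clear ligands from the blood. The lack of apolipoprotein E is thus shared by the ApoE, AS1 and AS2 donors. The knockouts belong to the plasma donors, so no gene of the macrophages checks these labels. The age and sex of the mice, the strain of the marrow and any pooling of plasma are not stated in the labels.

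Glycolysis splits glucose in the cytosol into pyruvate and yields ATP without oxygen. Hexokinase traps glucose by phosphorylation, phosphofructokinase commits it to the pathway, pyruvate kinase makes pyruvate, and lactate dehydrogenase turns pyruvate into lactate while restoring NAD+. Macrophages raise their use of glucose when they are activated, and many genes of the pathway are known targets of the hypoxia-inducible factor HIF-1 and of Myc.

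HIF-1 is known to bind DNA at the core ACGTG or GCGTG, and Myc at CACGTG, which holds the first of these cores on both strands. The promoter windows of the 4 genes that moved most between the plasma groups are printed to show where these letters lie. Each runs 5′ to 3′ on the gene's strand, from 250 bases before to 50 bases after a start site, with every core on either strand in capitals (a core on the other strand reads CACGT or CACGC), from RefSeq with the build GRCm38.p6. The windows are chr4:119108495-119108794 (plus strand) for Slc2a1, chr6:82774405-82774704 (minus strand) for Hk2, chr13:6648722-6649021 (minus strand) for Pfkp and chr7:46845554-46845853 (plus strand) for the first of the 2 windows of Ldha.
Slc2a1: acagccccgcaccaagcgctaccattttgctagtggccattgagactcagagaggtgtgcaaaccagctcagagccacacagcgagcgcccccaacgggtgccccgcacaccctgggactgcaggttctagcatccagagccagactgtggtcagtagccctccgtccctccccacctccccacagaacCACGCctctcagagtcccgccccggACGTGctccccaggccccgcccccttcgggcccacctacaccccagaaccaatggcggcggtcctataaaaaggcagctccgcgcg
Hk2: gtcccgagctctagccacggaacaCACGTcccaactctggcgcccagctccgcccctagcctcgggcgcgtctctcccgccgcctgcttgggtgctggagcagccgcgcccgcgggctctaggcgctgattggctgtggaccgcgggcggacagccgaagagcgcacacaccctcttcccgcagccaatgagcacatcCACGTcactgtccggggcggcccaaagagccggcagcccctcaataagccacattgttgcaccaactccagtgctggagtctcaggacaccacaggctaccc
Pfkp: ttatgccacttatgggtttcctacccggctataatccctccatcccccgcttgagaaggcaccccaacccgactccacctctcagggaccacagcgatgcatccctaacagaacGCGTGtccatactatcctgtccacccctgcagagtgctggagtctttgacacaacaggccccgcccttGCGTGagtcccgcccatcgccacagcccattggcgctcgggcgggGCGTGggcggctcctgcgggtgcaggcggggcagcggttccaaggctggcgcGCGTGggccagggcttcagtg
Ldha: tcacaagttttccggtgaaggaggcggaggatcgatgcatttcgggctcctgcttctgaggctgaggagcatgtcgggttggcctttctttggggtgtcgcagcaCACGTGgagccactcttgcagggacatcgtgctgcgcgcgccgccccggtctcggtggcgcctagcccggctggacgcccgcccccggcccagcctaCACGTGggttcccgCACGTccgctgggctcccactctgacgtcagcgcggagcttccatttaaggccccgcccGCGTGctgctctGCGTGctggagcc
In the Slc2a1 window the capitals start at positions -61 and -36 from the start site, and in the Hk2 window at -226 and -52. The Pfkp window holds 4 stretches, at -136, -68, -23 and 29. The Ldha window holds 5, and those at -145 and -48 are CACGTG. Over the 14 windows of the 9 genes, some of which overlap, 11 (78.6%) held a core, against 43.8% of all 32851 promoter windows of the same length. CACGTG was in 1 of 14 (7.14%), against 7.15% of all windows. The windows were not matched in GC content, which ran from 51.3% to 67.3% over the 14, so these shares are no test of enrichment. These matches describe the letters and are no measure of binding.

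All values are log2 expression values made by RMA, which gives every array nearly the same distribution (median 4.37). Macrophage identity was checked with 9 markers. The group means of Csf1r, the M-CSF receptor gene, lay between 12.22 and 12.61. Those of Adgre1, which encodes F4/80, lay between 12.08 and 12.56. The list moved between groups, by the calls defined below. With ApoE against WT plasma 1 marker was higher and 7 were lower (16.9% of all rows called). With AS1 against ApoE plasma 7 were higher and 0 lower (16.5%). With AS2 against ApoE plasma 4 were higher and 2 lower (15.6%). Aif1 fell by 1.42 log2 units with ApoE against WT plasma (limma adjusted p = 3.94e-07). Arrays of a group correlated across rows at a mean r between 0.991 (ApoE replicate 2) and 0.997, and outside its own group ApoE replicate 5 correlated best with AS1 replicate 3 (r = 0.994), so the counts below are also given without ApoE replicates 2 and 5. ApoE replicate 1 held 24162 distinct values where each of the other 17 arrays held 7087, and its sorted values differed from theirs by at most 0.0019. Nothing in the labels ties a replicate to its own culture or donor mouse, so the p-values reflect array-to-array spread alone, and that spread may be technical. Different genes have different probes, so levels are compared between groups for one gene and not between genes. Differences were tested with limma in 1 fit over all rows and are called where the Benjamini-Hochberg adjusted p over all rows of a comparison is under 0.05.

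The shares of all rows given below include dim rows, while the 9 genes stood at the 60.6 to 98.8 percentile of row means. Shares among rows of like signal are not given here. With ApoE instead of WT plasma, Pfkp, Ldha and Hk2 rose and Pkm and Pgk1 fell. That is 5 of 9 genes called against 16.9% of all rows (8.54% higher, 8.36% lower). AS1 instead of ApoE plasma lowered Pfkp, Slc2a1, Ldha and Hk2 and raised 0 genes, which is 4 of 9 against 16.5% of all rows (7.74% higher, 8.8% lower). AS2 instead of ApoE plasma raised Pkm and Ldha and lowered Hk2 and Pfkl, again 4 of 9, against 15.6% of all rows (7.59% higher, 8.02% lower). Between AS2 and AS1 plasma, Slc2a1, Pfkp, Ldha and Pkm were higher and Hk2 lower with AS2, 5 of 9 against 22.1% (11.5% higher, 10.6% lower). Against WT, AS1 plasma lowered Slc2a1, Pkm and Ldha, 3 of 9 against 9.48% (4.84% higher, 4.64% lower), and AS2 plasma raised Pfkp and Ldha and lowered Hk2 and Pfkl, 4 of 9 against 17.8% (8.65% higher, 9.2% lower). The 9 genes belong to 1 pathway, but the set was chosen with earlier results of these data known. The shares called therefore describe the set and are no test of it. Calls went both ways in ApoE against WT, AS2 against ApoE, AS2 against AS1 and AS2 against WT. In AS1 against ApoE and AS1 against WT all calls were lower.

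The median log2 difference over the 9 genes was 0.02 for ApoE minus WT, -0.16 for AS1 minus ApoE, 0.12 for AS2 minus ApoE, 0.28 for AS2 minus AS1, -0.24 for AS1 minus WT and 0.11 for AS2 minus WT. The medians of all rows in these comparisons lay between -0.0068 and 0.0019. The same ApoE arrays enter the first 3 comparisons, so these are not independent of each other. Without ApoE replicates 2 and 5, 3 genes rose and 1 fell with ApoE plasma (Pgk1 was no longer called), 0 rose and 5 fell with AS1 plasma (Pfkl was added, adjusted p = 0.049), and 2 rose and 3 fell with AS2 plasma (Pfkp was added at -0.28, adjusted p = 0.0169), beside 16.5%, 17.8% and 14.2% of all rows called. Without WT replicate 4 or without ApoE replicate 4, 3 genes in place of 5 were called between ApoE and WT.

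**Figure D1:**
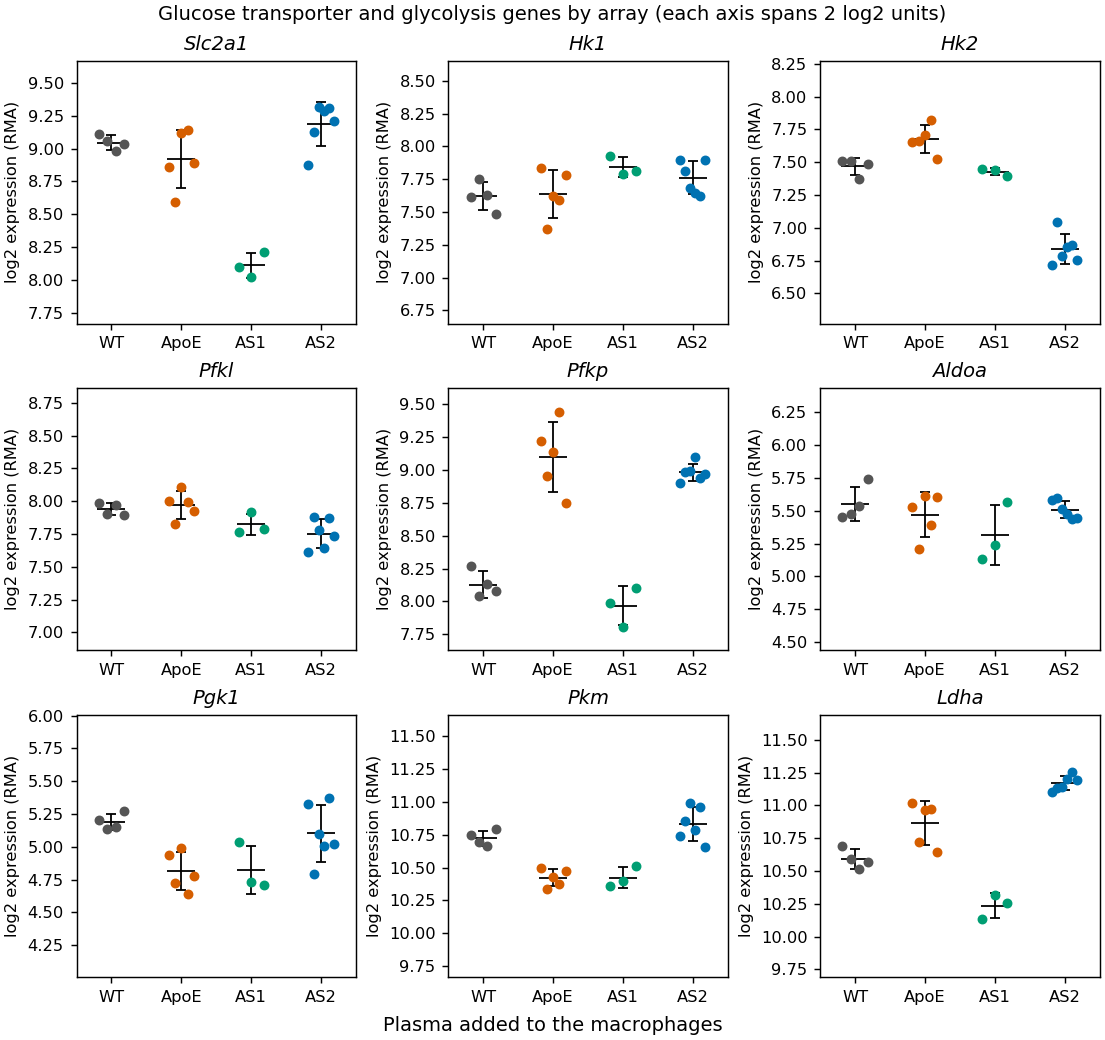
Log2 expression (RMA) of each measured gene on the vertical axis by plasma group on the horizontal axis; points are single arrays, the long line is the group mean and the whiskers are 1 SD (n = 4, 5, 3 and 6). Every vertical axis spans 2 log2 units. The AS1 arrays lie apart at the bottom for Slc2a1 (8.02 to 8.21) and Ldha (10.13 to 10.32), and the AS2 arrays lie apart at the bottom for Hk2 (6.72 to 7.05).

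Slc2a1 (chromosome 4, 119108745-119137330, GRCm38.p6) encodes GLUT1, the basal glucose transporter of most cells. Its log2 values were 9.11, 9.06, 8.98 and 9.04 with WT plasma, 8.86, 8.59, 9.12, 9.14 and 8.89 with ApoE plasma, and 8.10, 8.02 and 8.21 with AS1 plasma. With AS2 plasma they ran from 8.88 over a median of 9.25 to 9.31. All 3 AS1 arrays lay below every array of the other groups, which overlapped each other. Slc2a1 was 8.11 ± 0.10 (SD, n = 3) with AS1 against 8.92 ± 0.22 (SD, n = 5) with ApoE plasma, a fall of 0.81 ± 0.11 log2 units (SE), or 1.75-fold (limma adjusted p = 6.09e-05). Against WT it fell by 0.94 log2 units (adjusted p = 3.17e-05), and AS2 exceeded AS1 by 1.08 log2 units (adjusted p = 9.85e-07). With AS2 plasma the level was 9.19 ± 0.17 (SD, n = 6), 0.27 log2 units above ApoE with a 95% interval from 0.07 to 0.46 (adjusted p = 0.0601). That difference passed the threshold without ApoE replicate 3 (adjusted p = 0.0297), ApoE replicate 4 (0.0259) or AS2 replicate 1 (0.0109), after a filter on dim rows (0.0384) and with a trended robust variance (0.044), and it was 0.15 (adjusted p = 0.406) without ApoE replicates 2 and 5. ApoE minus WT was -0.13 (95% interval -0.34 to 0.09, adjusted p = 0.537).

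Markers of other cells moved with AS1 plasma, in which the Slc2a1 row fell. All 13 neutrophil markers were higher with AS1 than with ApoE plasma, and their summed level (log2 of the summed linear values) was 14.38 to 14.66 on AS1 arrays, against 12.62 to 13.80 with ApoE, 12.72 to 13.08 with WT and 11.76 to 12.54 with AS2 plasma. RMA values have no zero. The lowest group mean among these markers was that of Camp, 4.89 with AS2 plasma. Of 107 small RNA rows, 47 were lower and 0 higher with AS1 than with ApoE plasma, with a median difference of -0.48. Their part in the differences of the AS1 arrays was not tested. In samples of many cells, fewer cells of a type and less RNA per cell cannot be told apart.

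Hexokinase performs the first step inside the cell, and Hk2 (chromosome 6, 82725025-82774454) encodes its inducible form. Hk2 values were 7.51, 7.51, 7.37 and 7.49 with WT plasma, 7.65, 7.66, 7.71, 7.82 and 7.53 with ApoE plasma, 7.45, 7.44 and 7.39 with AS1 plasma, and from 6.72 over a median of 6.82 to 7.05 with AS2 plasma. The 6 AS2 arrays lay below all others. The ApoE arrays lay above the WT arrays by a gap of 0.016 log2 units, and the AS1 and WT arrays overlapped. With AS2 plasma Hk2 was 6.84 ± 0.12 (SD, n = 6) against 7.67 ± 0.11 (SD, n = 5) with ApoE plasma, a fall of 0.84 ± 0.06 log2 units (SE), or 1.79-fold (limma adjusted p = 1.46e-08). It also fell by 0.63 log2 units against WT (adjusted p = 5.91e-07) and by 0.59 against AS1 (adjusted p = 4.20e-06). Each of these held without any 1 array.

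The other differences of Hk2 were smaller. Hk2 rose by 0.20 ± 0.06 log2 units (SE) with ApoE against WT plasma (limma adjusted p = 0.0336). That call was lost without WT replicate 3 (adjusted p = 0.119), WT replicate 4 (0.0606), ApoE replicate 1 (0.0516), ApoE replicate 3 (0.0672) or ApoE replicate 4 (0.0892). With AS1 plasma Hk2 fell by 0.25 ± 0.07 log2 units against ApoE (adjusted p = 0.0195), and that call was lost without AS1 replicate 1 (0.0516) or AS1 replicate 3 (0.0784). AS1 minus WT was -0.04 (95% interval -0.19 to 0.11, adjusted p = 0.838).

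Hk1 (chromosome 10, 62268855-62379920) encodes the hexokinase found in most tissues. Its arrays ran from 7.37 to 7.93 over all groups, with group means of 7.62 (WT), 7.64 (ApoE), 7.85 (AS1) and 7.76 (AS2), and it was called in 0 of 6 comparisons by limma. At unadjusted p it was under 0.05 in 2 of them, AS1 minus ApoE (0.20, 95% interval 0.0050 to 0.40, adjusted p = 0.181) and AS1 minus WT (0.22, 95% interval 0.02 to 0.43, adjusted p = 0.203).

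Phosphofructokinase makes the step that commits glucose to glycolysis, and Pfkp (chromosome 13, 6579874-6649060) encodes its platelet-type subunit. Pfkp values were 8.27, 8.04, 8.13 and 8.08 with WT plasma, 9.22, 8.95, 9.13, 9.45 and 8.75 with ApoE plasma, 7.98, 7.81 and 8.10 with AS1 plasma, and from 8.90 over a median of 8.98 to 9.10 with AS2 plasma. The arrays form a high pair of groups, ApoE and AS2, and a low pair, WT and AS1, with overlap inside each pair and none between the pairs. Pfkp was 9.10 ± 0.27 (SD, n = 5) with ApoE against 8.13 ± 0.10 (SD, n = 4) with WT plasma, a rise of 0.97 ± 0.10 log2 units (SE), or 1.96-fold (limma adjusted p = 2.51e-06). With AS1 plasma it fell by 1.14 ± 0.11 log2 units against ApoE (adjusted p = 3.56e-06), to 7.96 ± 0.15 (SD, n = 3). AS2 exceeded WT by 0.85 log2 units (adjusted p = 5.48e-06) and AS1 by 1.02 (adjusted p = 2.25e-06). AS2 minus ApoE was -0.12 (95% interval -0.32 to 0.08, adjusted p = 0.545), and AS1 minus WT was -0.16 (95% interval -0.41 to 0.09, adjusted p = 0.51).

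Beside these Pfkp values, the megakaryocyte and platelet markers were higher with AS1 than with ApoE plasma in 3 of 4 measured genes and lower with AS2 in 4 of 4. Their summed log2 level was 11.06 to 11.32 on AS1 arrays, 10.09 to 11.01 with ApoE, 10.31 to 10.48 with WT and 8.84 to 9.26 with AS2 plasma. The members of this list differed among themselves: the group means of Pf4 were 9.94 (WT), 9.38 (ApoE), 9.22 (AS1) and 7.89 (AS2), highest with WT plasma, while Ppbp was 7.88, 9.30, 10.22 and 7.71, highest with AS1. The part of such cells in the Pfkp values was not tested.

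Pfkl (chromosome 10, 77986947-78009807), the liver-type subunit gene, had group means of 7.94 (WT), 7.97 (ApoE), 7.82 (AS1) and 7.75 (AS2), and its arrays ran from 7.62 to 8.11. It fell by 0.22 ± 0.06 log2 units (SE) with AS2 against ApoE plasma (limma adjusted p = 0.0111), although arrays of both groups overlapped. The fall of 0.19 against WT (adjusted p = 0.0406) was lost without WT replicate 1, 2, 3 or 4 or without AS2 replicate 1, 3, 4 or 6 (adjusted p from 0.0555 to 0.113). AS1 minus ApoE was -0.15 (adjusted p = 0.181).

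The 2 forms of each enzyme were compared on each array by subtracting one log2 value from the other, which makes changes common to both forms cancel. This difference includes a constant set by the probes, so its change between groups is what is read. Hk2 minus Hk1 was -0.11, -0.25, -0.25 and -0.0020 with WT plasma, -0.18, 0.29, 0.08, 0.23 and -0.26 with ApoE plasma, -0.48, -0.35 and -0.42 with AS1 plasma, and from -1.18 to -0.75 with AS2 plasma. All AS2 arrays lay below all ApoE arrays, by 0.96 log2 units on average (exact permutation test, two-sided, p = 0.00433, the smallest that 6 against 5 arrays allow; adjusted p = 0.026 over 6 tests). AS1 minus ApoE was -0.45 without overlap (exact p = 0.0357, the smallest that 3 against 5 arrays allow, adjusted p = 0.0536). ApoE minus WT was 0.18 (exact p = 0.222, adjusted p = 0.267).

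Pfkp minus Pfkl was 0.28, 0.13, 0.15 and 0.18 with WT plasma, 1.22, 1.13, 1.02, 1.45 and 0.82 with ApoE plasma, 0.21, -0.11 and 0.31 with AS1 plasma, and from 1.07 to 1.46 with AS2 plasma. ApoE exceeded WT by 0.94 log2 units (exact permutation test, two-sided, p = 0.0159, the smallest that 5 against 4 arrays allow, adjusted p = 0.0476). AS1 minus ApoE was -0.99 without overlap (exact p = 0.0357, again the smallest possible, adjusted p = 0.0536), and AS2 minus ApoE was 0.10 with overlap (exact p = 0.381, adjusted p = 0.381). With fewer arrays these exact tests cannot reach as low a p, so AS1 minus ApoE not being called does not show that nothing changed. A limma fit of the same differences over the 4 groups called AS1 minus ApoE in each pair. Its adjusted p was 5.11e-07 for Pfkp minus Pfkl and 0.00342 for Hk2 minus Hk1. The Hk2 minus Hk1 call in AS2 minus ApoE was lost without ApoE replicate 1, 2, 3, 4 or 5 (adjusted p = 0.0571 each), while the difference stayed between -1.03 and -0.89. The Pfkp minus Pfkl call in ApoE minus WT was lost without any 1 of these 9 arrays (adjusted p = 0.0857 without an ApoE array and 0.0536 without a WT array), while the difference stayed between 0.86 and 1.02.

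**Figure D2:**
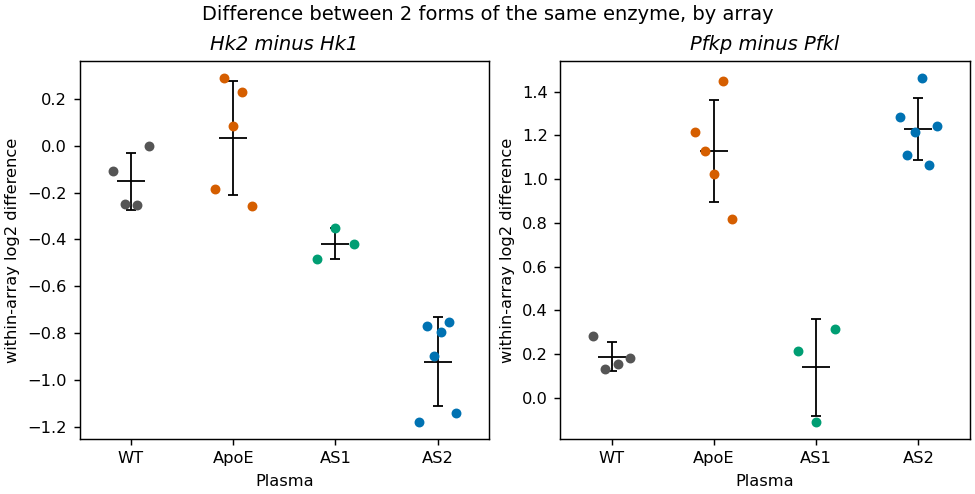
Within-array log2 difference between 2 forms of hexokinase (left, Hk2 minus Hk1) and of phosphofructokinase (right, Pfkp minus Pfkl) on the vertical axis, by plasma group; points are arrays, the long line is the mean and the whiskers are 1 SD. Hk2 minus Hk1 is lowest on the 6 AS2 arrays (-1.18 to -0.75), and Pfkp minus Pfkl is at least 0.82 on all ApoE and AS2 arrays and at most 0.31 on all WT and AS1 arrays.

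Aldolase, which splits the sugar in the middle of the pathway, and phosphoglycerate kinase, which makes its first ATP, had the lowest of the 9 rows in signal. Aldoa (chromosome 7, 126795234-126800994) ran from 5.13 to 5.74 over all arrays and was called by limma in 0 of 6 comparisons, with unadjusted p under 0.05 in 1 of them, AS1 minus WT (-0.24, 95% interval -0.46 to -0.02, adjusted p = 0.201). Without AS1 replicate 3, Aldoa was called lower with AS1 than with WT plasma (adjusted p = 0.0415) and higher with AS2 than with AS1 plasma (0.0266). Pgk1 (chromosome X, 106187100-106203699) was 5.19 ± 0.06 (SD, n = 4) with WT plasma, 4.82 ± 0.14 (SD, n = 5) with ApoE, 4.82 ± 0.19 (SD, n = 3) with AS1 and 5.10 ± 0.22 (SD, n = 6) with AS2 plasma. The 5 ApoE arrays (4.64 to 4.99) lay below the 4 WT arrays (5.14 to 5.27), a fall of 0.38 ± 0.11 log2 units (SE, adjusted p = 0.0193). That call was lost without WT replicate 4 (adjusted p = 0.0605) or ApoE replicate 4 (0.0525), and without ApoE replicates 2 and 5 (0.0927). AS2 minus ApoE was 0.29 (95% interval 0.09 to 0.49, adjusted p = 0.0509), and was called without ApoE replicate 3 (0.0325) or AS2 replicate 2 (0.0109), or once dim rows were filtered (0.0314). AS2 minus AS1 (0.28, adjusted p = 0.0904) was called without AS1 replicate 1 (0.037) or AS2 replicate 2 (0.0232), and AS1 minus WT (-0.37, adjusted p = 0.0698) without AS1 replicate 1 (0.0371), after the filter on dim rows (0.0447) and in the fit of these groups alone (0.0426). Other arrays left out moved these Pgk1 differences the other way. Their limma adjusted p then reached 0.137 for AS2 minus ApoE, 0.331 for AS2 minus AS1 and 0.261 for AS1 minus WT. The rows of Aldoa and Pgk1 stood at the 65.5 and 60.6 percentile of row means, against 79.7 to 98.8 for the other 7. That is low for enzymes that most cells make in quantity, and whether these probe sets measure the transcripts well was not tested, so a difference that is not called here does not show that the gene did not change.

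Pkm (chromosome 9, 59656576-59679372) encodes the muscle-type pyruvate kinase, whose spliced forms this single row does not separate. Its values were 10.75, 10.69, 10.67 and 10.79 with WT plasma, 10.50, 10.34, 10.43, 10.38 and 10.47 with ApoE plasma, 10.36, 10.40 and 10.51 with AS1 plasma, and from 10.66 over a median of 10.82 to 10.996 with AS2 plasma. Here the high groups were WT and AS2 and the low groups ApoE and AS1, with no overlap between high and low. Pkm fell by 0.30 ± 0.06 log2 units (SE) with ApoE against WT plasma (10.42 ± 0.07, SD, n = 5, against 10.72 ± 0.06, SD, n = 4; limma adjusted p = 0.00223). It rose by 0.41 ± 0.06 with AS2 against ApoE plasma (to 10.83 ± 0.13, SD, n = 6; adjusted p = 4.24e-05) and was 0.41 higher with AS2 than with AS1 plasma (adjusted p = 0.000168). AS1 minus ApoE was 0.00082 (95% interval -0.14 to 0.15, adjusted p = 0.997). AS1 was 0.30 below WT (adjusted p = 0.0114), a call that was lost without AS1 replicate 1 (adjusted p = 0.0646).

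Ldha (chromosome 7, 46842274-46855627) encodes the lactate dehydrogenase subunit that favours making lactate. Its values were 10.69, 10.59, 10.51 and 10.57 with WT plasma, 11.02, 10.72, 10.96, 10.97 and 10.65 with ApoE plasma, 10.13, 10.32 and 10.25 with AS1 plasma, and from 11.11 over a median of 11.17 to 11.25 with AS2 plasma. The AS1 arrays were lowest and the AS2 arrays highest, without overlap with any other group, while ApoE replicate 5 lay within the WT range. Ldha rose by 0.27 ± 0.07 log2 units (SE) with ApoE against WT plasma (limma adjusted p = 0.00997), from 10.59 ± 0.07 (SD, n = 4) to 10.86 ± 0.17 (SD, n = 5). In a fit of these 2 groups alone that call was lost (adjusted p = 0.0623). With AS1 plasma it fell by 0.63 ± 0.08 against ApoE, or 1.55-fold (adjusted p = 1.94e-05), to 10.23 ± 0.10 (SD, n = 3). With AS2 plasma it rose by 0.31 ± 0.06 against ApoE (adjusted p = 0.00191), to 11.17 ± 0.05 (SD, n = 6), and without ApoE replicates 2 and 5 by 0.19 (adjusted p = 0.0154). AS2 exceeded AS1 by 0.94 log2 units (adjusted p = 7.03e-08) and WT by 0.58 (adjusted p = 5.03e-06). AS1 was 0.36 below WT (adjusted p = 0.00688), and this call was lost without AS1 replicate 1 (adjusted p = 0.0503).

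**Figure D3:**
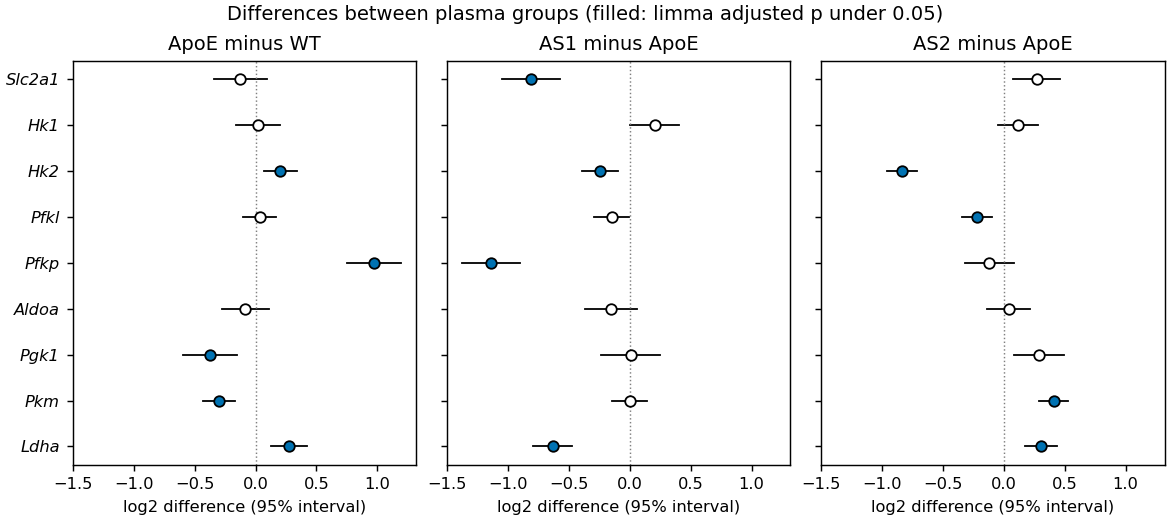
Log2 difference between plasma groups on the horizontal axis for each gene on the vertical axis, in the 3 main comparisons; points are limma estimates, lines are 95% intervals, and filled points have a limma adjusted p under 0.05. Pfkp has the largest rise with ApoE against WT plasma (0.97) and the largest fall with AS1 against ApoE plasma (-1.14), and Hk2 has the largest difference with AS2 against ApoE plasma (-0.84).

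The order of the group means differed from gene to gene. For Slc2a1 it was AS2, WT, ApoE and AS1, where AS2 and WT (adjusted p = 0.424) and WT and ApoE (0.537) did not pass the test as neighbours. Hk2 followed the order ApoE, WT, AS1 and AS2, with WT and AS1 not past it (0.838). For Pfkp it was ApoE, AS2, WT and AS1, where the step from AS2 to WT passed and ApoE with AS2 (0.545) and WT with AS1 (0.51) did not. Pkm had the order AS2, WT, AS1 and ApoE, where the step from WT to AS1 passed. For Ldha, with the order AS2, ApoE, WT and AS1, all 3 steps passed. For Hk1, Pfkl, Aldoa and Pgk1, 0 of 3 steps passed.

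The arrays of the compared groups did not overlap in 4 of 9 genes for ApoE against WT (14.3% of all rows), 4 for AS1 against ApoE (18.2%), 3 for AS2 against ApoE (10.9%), 5 for AS2 against AS1 (23.9%), 5 for AS1 against WT (18.1%) and 4 for AS2 against WT (17%).

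Patterns most like those of the 3 genes with the widest range of group means were sought over the 18 arrays, by the root mean square difference between values centred on each gene's mean. For Pfkp, whose group means spanned 1.14 log2 units, the nearest were Ahnak2 (0.14), Azin1 (0.16), Lat2 (0.16), Stx3 (0.16) and Golt1b (0.16), against a median of 0.52 over all rows. For Slc2a1, spanning 1.08, they were Oas1g (0.15), Snhg1 (0.16), Med10 (0.17), Plpp2 (0.18) and Cyb5b (0.18), against a median of 0.41. For Ldha, spanning 0.94, they were Ftsj3 (0.09), Nup93 (0.10), Prep (0.10), Usp14 (0.10) and Tbrg1 (0.11), against a median of 0.36. None of the other 8 measured genes of the set was among the 5 nearest of Pfkp, Slc2a1 or Ldha. These are descriptions over arrays that share their groups.

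Other genes of the pathway were read from lists of known pathway members, also chosen with earlier results of these data known. Of 16 measured genes among 19 other glycolysis enzymes and glucose transporters, 3 rose and 3 fell with ApoE against WT plasma, 4 rose and 3 fell with AS1 against ApoE, and 2 rose and 3 fell with AS2 against ApoE. Without ApoE replicates 2 and 5 these counts were 5 and 2, 3 and 4, and 1 and 2. The share of the list called was 37.5%, 43.8% and 31.2%, against 16.9%, 16.5% and 15.6% of all rows, which were 16.5%, 17.8% and 14.2% without ApoE replicates 2 and 5. The list's median differences in these comparisons were 0.05, -0.07 and -0.04. Slc2a3, which encodes the high-affinity transporter GLUT3, moved unlike Slc2a1. Its values were 6.80, 6.80, 6.81 and 6.90 with WT plasma, 7.26, 7.46, 7.54, 8.10 and 8.26 with ApoE plasma, 9.09, 8.57 and 8.88 with AS1 plasma, and from 6.23 over a median of 6.53 to 6.84 with AS2 plasma. The AS1 arrays were highest, the ApoE arrays lay between, and the WT and AS2 arrays overlapped at the bottom. Slc2a3 rose by 0.89 ± 0.18 log2 units (SE) with ApoE against WT plasma (limma adjusted p = 0.00145) and by 1.12 ± 0.19 with AS1 against ApoE (adjusted p = 0.000482), and it fell by 1.15 ± 0.16 with AS2 against ApoE (adjusted p = 4.56e-05). Slc2a3 and Slc2a1 therefore moved in opposite directions in AS1 minus ApoE. The summed level of the neutrophil markers given above was also highest on the AS1 arrays. It was lowest on the AS2 arrays, although Mpo, Elane, Ctsg and Prtn3 had their lowest group means with WT plasma (7.65, 7.19, 5.29 and 7.34). The part of these cells in the Slc2a3 values was not tested.

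Among the remaining genes of this list, Slc2a6, another transporter gene, rose by 1.0 ± 0.13 log2 units (SE) with AS1 against ApoE plasma (limma adjusted p = 5.05e-05). The ADP-dependent glucokinase gene Adpgk rose by 0.37 with ApoE against WT (adjusted p = 0.00508) and by 0.70 with AS1 against ApoE (5.43e-05), and fell by 0.35 with AS2 (0.00355). Eno2, an enolase gene best known from neurons, followed Pfkp: its values were 4.51, 5.08, 4.82 and 4.90 with WT plasma, 5.82, 5.54, 6.30, 5.84 and 5.66 with ApoE plasma, 4.94, 4.83 and 5.11 with AS1 plasma, and 5.54 to 5.93 with AS2 plasma. WT and AS1 arrays were low and ApoE and AS2 arrays high, without overlap between the pairs. Eno2 rose by 1.0 ± 0.14 with ApoE against WT (adjusted p = 4.26e-05) and fell by 0.87 ± 0.15 with AS1 against ApoE (0.000509). Aldoc, the aldolase C gene, fell by 0.64 ± 0.14 with ApoE against WT (adjusted p = 0.00258) and rose by 0.72 ± 0.12 with AS2 against ApoE (0.000346); without ApoE replicates 2 and 5 these were -0.38 and 0.46, both still called. Tpi1, triose phosphate isomerase, rose by 0.36 with AS2 against ApoE (adjusted p = 0.00635), a call lost without ApoE replicates 2 and 5 (0.23, adjusted p = 0.0883). The Gapdh row, looked at after its values were seen, had group means of 3.77 to 3.81, below the median of the arrays, and carries little information here.

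Regulators of the pathway's flux were measured in 13 of 14 listed genes, of which 3 rose and 3 fell with ApoE against WT plasma, 5 rose and 4 fell with AS1 against ApoE, and 4 rose and 2 fell with AS2 against ApoE (2 and 3, 5 and 4, and 3 and 3 without ApoE replicates 2 and 5). These were 46.2%, 69.2% and 46.2% of the list, against 16.9%, 16.5% and 15.6% of all rows. Their median differences were 0.01, 0.0050 and 0.04. Txnip, whose protein restrains glucose uptake and whose expression rises with glucose inside the cell, was 11.75, 11.84, 11.82 and 11.79 with WT plasma, 10.38, 10.53, 10.44, 10.43 and 10.84 with ApoE plasma, 11.69, 11.87 and 11.46 with AS1 plasma, and 11.44 to 11.53 with AS2 plasma. The 5 ApoE arrays lay below all others. Txnip fell by 1.28 ± 0.08 log2 units (SE) with ApoE against WT plasma (limma adjusted p = 8.59e-09), and was higher by 1.15 ± 0.09 with AS1 (5.73e-07) and by 0.98 ± 0.07 with AS2 than with ApoE plasma (4.42e-08). Hif1a, the regulated subunit gene of HIF-1, was 10.14 to 10.24 with WT plasma, 10.53, 10.77, 10.22, 10.27 and 10.38 with ApoE, 10.42, 10.43 and 10.47 with AS1, and 9.29 to 9.50 with AS2 plasma. The AS2 arrays were lowest, and Hif1a fell by 1.03 ± 0.07 with AS2 against ApoE plasma (adjusted p = 2.40e-08).

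The kinases that hold back pyruvate dehydrogenase moved separately from each other. Pdk1 rose by 0.78 ± 0.07 log2 units (SE) with AS2 against ApoE plasma (limma adjusted p = 5.90e-07). Pdk2 fell by 0.76 ± 0.14 with ApoE against WT (adjusted p = 0.000536) and was 0.72 ± 0.15 higher with AS1 than with ApoE (0.00206), and Pdk3 was 0.61 ± 0.11 higher with AS1 (0.000479). Pdk4 fell by 0.29 with AS2 against ApoE (adjusted p = 0.016), with group means of 4.06 and 4.35, both below the array median of 4.37. Pfkfb4, which sets the phosphofructokinase activator, fell by 0.62 ± 0.07 with ApoE against WT (5.88e-06) and was 0.50 ± 0.08 higher with AS1 than with ApoE (0.000184). Myc, a transcription factor that drives growth, rose by 0.64 ± 0.11 with ApoE against WT plasma (0.000254). Its group means were 6.91 (WT), 7.55 (ApoE), 7.09 (AS1) and 7.87 (AS2). The rise of 0.32 with AS2 against ApoE was called (limma adjusted p = 0.0294). That call was lost without ApoE replicate 1, 4 or 5 or AS2 replicate 3, 4, 5 or 6 (0.0563 to 0.0884).

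Lactate and pyruvate handling was measured in 10 of 11 listed genes. With ApoE against WT plasma 3 rose and 0 fell, with AS1 against ApoE 0 rose and 4 fell, and with AS2 against ApoE 1 rose and 1 fell (4 and 0, 0 and 5, and 0 and 1 without ApoE replicates 2 and 5). The share called was 30%, 40% and 20%, against 16.9%, 16.5% and 15.6% of all rows. The medians were 0.11, -0.15 and 0.10. Slc16a1, the lactate carrier gene of MCT1, was 6.40, 6.14, 6.36 and 6.33 with WT plasma, 7.12, 6.79, 7.02, 6.83 and 6.35 with ApoE, 5.82, 6.25 and 5.96 with AS1, and 6.88 to 7.28 with AS2 plasma. The AS1 arrays overlapped the WT arrays at the bottom, the AS2 arrays overlapped the ApoE arrays at the top, and ApoE replicate 5 lay in the WT range, as it did for Ldha. Slc16a1 rose by 0.51 ± 0.13 log2 units (SE) with ApoE against WT (limma adjusted p = 0.0091) and fell by 0.81 ± 0.14 with AS1 against ApoE (0.000503). Of the 4 listed genes of the pyruvate dehydrogenase complex, 3 fell with AS1 against ApoE plasma, Dlat by 0.65, Pdhb by 0.56 and Dld by 0.53 (adjusted p = 1.77e-05, 0.00488 and 0.000523), and the fourth, Pdha1, was not called (-0.24, adjusted p = 0.145). With ApoE against WT, Dld rose by 0.53 (adjusted p = 0.000211) and Dlat by 0.22 (0.0448); the latter was lost without WT replicate 2, 3 or 4 or ApoE replicate 1, 2, 4 or 5 (0.0578 to 0.163). With AS2 against ApoE, Slc16a7, the MCT2 gene, fell by 0.34 (4.13e-05) and Bsg, whose protein escorts MCT1 to the membrane, rose by 0.24 (0.0403), a call lost without ApoE replicate 1, 2 or 4 or AS2 replicate 1, 3, 4, 5 or 6 (0.0539 to 0.107).

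The pentose phosphate pathway takes glucose 6-phosphate out of glycolysis to make NADPH and ribose. Of 7 measured genes among 8 listed, 2 rose and 5 fell with ApoE against WT plasma, 2 rose and 1 fell with AS1 against ApoE, and 2 rose and 1 fell with AS2 against ApoE, with the same counts without ApoE replicates 2 and 5. The share called was 100%, 42.9% and 42.9%, against 16.9%, 16.5% and 15.6% of all rows. The medians were -0.38, 0.0098 and 0.15. With ApoE against WT, H6pd fell by 0.86 ± 0.10 log2 units (SE), Pgd by 0.44 ± 0.06, Taldo1 by 0.41 ± 0.06 and Tkt by 0.26 ± 0.05 (limma adjusted p from 6.80e-06 to 0.00197). With AS1 against ApoE, H6pd rose by 0.49 and Pgls by 0.50 (adjusted p = 0.00386 and 0.00455) and Taldo1 fell by 0.24 (0.00849, lost without AS1 replicate 1 at 0.0533). With AS2 against ApoE, Tkt rose by 0.33 and Pgd by 0.27 (8.50e-05 and 0.00132) and Rpia fell by 0.37 (0.0053).

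Glycogen, hexosamine and gluconeogenesis enzymes, which use the same sugar phosphates, were measured in 11 of 12 listed genes: 3 rose and 2 fell with ApoE against WT plasma, 1 rose and 5 fell with AS1 against ApoE, and 0 rose and 5 fell with AS2 against ApoE (3 and 3, 1 and 5, and 0 and 5 without ApoE replicates 2 and 5). The share called was 45.5%, 54.5% and 45.5%, against 16.9%, 16.5% and 15.6% of all rows. The medians were 0.03, -0.02 and -0.17. Gyg, the glycogen primer gene, Gfpt1, the entry enzyme of hexosamine synthesis, and Pck2, the mitochondrial phosphoenolpyruvate carboxykinase gene, rose by 0.96, 1.13 and 1.15 log2 units with ApoE against WT (limma adjusted p = 2.89e-08, 4.00e-08 and 2.39e-06). Gfpt1 was lower than with ApoE plasma by 0.68 with AS1 and 0.66 with AS2 (adjusted p = 5.34e-05 and 5.08e-06), and Gyg by 0.48 and 0.49 (0.000178 and 1.41e-05). Gbe1, the glycogen branching enzyme gene, fell by 0.98 with ApoE against WT (1.06e-07) and by a further 0.79 with AS1 against ApoE (7.69e-06). Ugp2 fell by 0.45 with AS1 against ApoE (0.00281), and Pygl and Pck2 by 0.45 and 0.58 with AS2 against ApoE (0.000767 and 0.000911).

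All 19 listed HIF-1 targets outside glycolysis were measured: 6 rose and 0 fell with ApoE against WT plasma, 1 rose and 6 fell with AS1 against ApoE, and 1 rose and 6 fell with AS2 against ApoE (5 and 0, 1 and 6, and 2 and 6 without ApoE replicates 2 and 5). The share called was 31.6%, 36.8% and 36.8%, against 16.9%, 16.5% and 15.6% of all rows. The medians were 0.08, -0.11 and -0.06. Vegfa, the vascular growth factor gene, was 8.33, 8.33, 8.53 and 8.42 with WT plasma, 10.21, 10.26, 10.39, 10.26 and 10.22 with ApoE, 9.41, 9.03 and 9.75 with AS1, and 8.68 to 8.88 with AS2 plasma, so the ApoE arrays were highest and the WT arrays lowest. It rose by 1.87 ± 0.10 log2 units (SE) with ApoE against WT (limma adjusted p = 7.18e-10), and fell by 0.87 ± 0.11 with AS1 (2.27e-05) and by 1.48 ± 0.09 with AS2 against ApoE (2.68e-09). Ero1a, an oxidase of protein folding, rose by 1.47 with ApoE against WT (adjusted p = 2.37e-07) and fell by 1.44 with AS1 (2.87e-06) and 1.26 with AS2 (4.09e-07) against ApoE. P4ha2, a collagen prolyl hydroxylase gene, moved the same way by 0.93, -1.17 and -1.24 (1.09e-05, 6.23e-06 and 1.23e-07). P4ha1 rose by 0.29 with ApoE against WT and fell by 0.38 with AS1 against ApoE (0.00206 and 0.000474), and Ddit4, a brake on mTOR, fell by 0.89 with AS2 against ApoE (5.87e-06). Of the 9 glycolysis genes, Pfkp, Ldha and Hk2 also rose with ApoE against WT plasma and fell with AS1 against ApoE. These comparisons share the ApoE arrays. Pkm and Pgk1 were called lower with ApoE against WT (-0.30 and -0.38). Neither was called in AS1 minus ApoE (0.00082 and 0.0088). Slc2a1 was not called with ApoE against WT (-0.13) and fell with AS1 against ApoE (-0.81). Hk1, Pfkl and Aldoa were called in neither comparison. The part of HIF-1 in these differences was not tested. With AS2 against ApoE plasma, where Vegfa, Ero1a and P4ha2 fell, Hk2 and Pfkl fell and Ldha and Pkm rose.

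**Figure D4:**
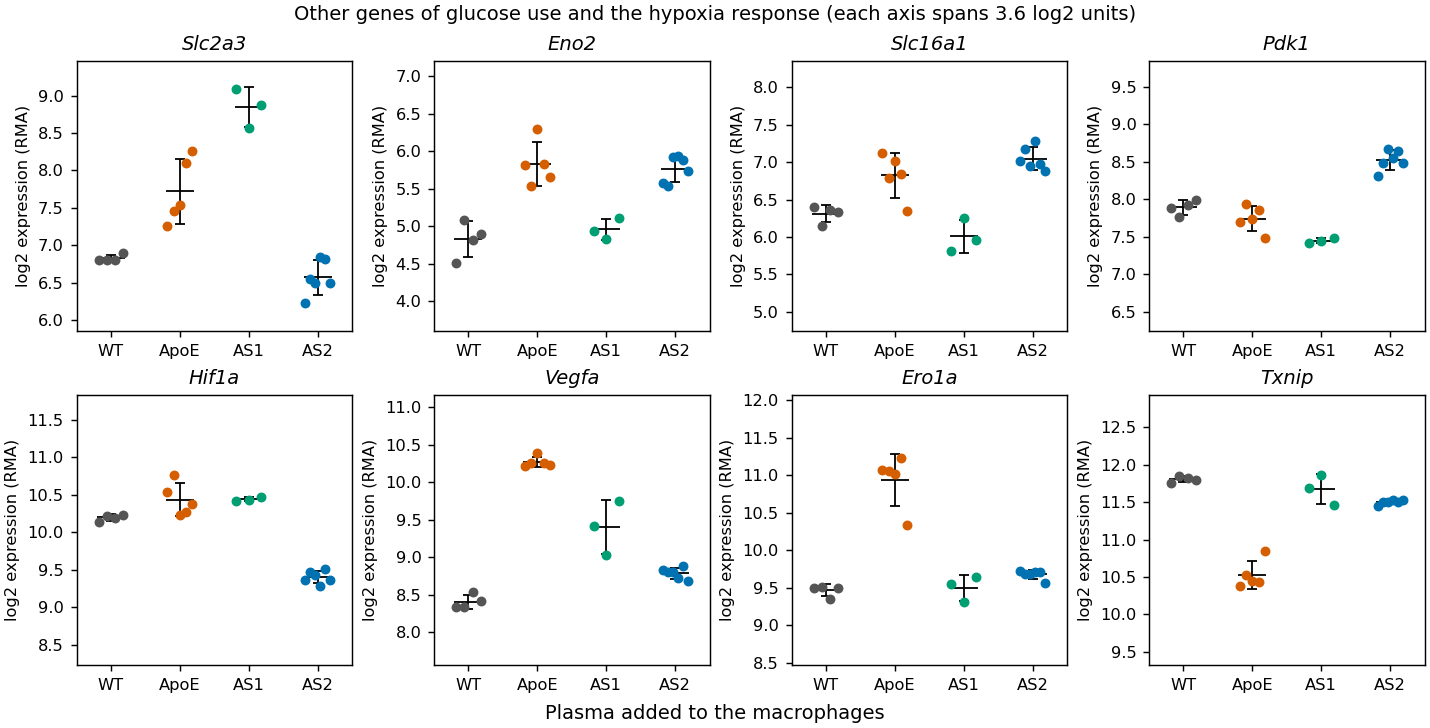
Log2 expression (RMA) of 8 other genes of glucose use and the hypoxia response on the vertical axis by plasma group; points are arrays, the long line is the mean and the whiskers are 1 SD. Every vertical axis spans 3.6 log2 units. Slc2a3 is highest on AS1 arrays (8.57 to 9.09), Hif1a is lowest on AS2 arrays (9.29 to 9.50), and Txnip is lowest and Vegfa highest on ApoE arrays (10.38 to 10.84 and 10.21 to 10.39).

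Several marker lists moved between the same groups, and their part in the differences above was not tested; the shares of all rows called are those given for the pathway lists. Of 9 measured macrophage markers, 1 rose and 7 fell with ApoE against WT plasma, 7 rose with AS1 against ApoE, and 4 rose and 2 fell with AS2 against ApoE; their summed log2 level was 14.74 to 14.77 (WT), 14.40 to 14.55 (ApoE), 14.66 to 14.82 (AS1) and 14.54 to 14.60 (AS2), with Aif1 the lowest in every group. All 11 measured genes of cell division rose with ApoE against WT and again with AS2 against ApoE, and 5 rose with AS1 against ApoE; the summed level was 9.55 to 9.88, 11.49 to 11.93, 11.99 to 12.09 and 12.42 to 12.57 in the order WT, ApoE, AS1 and AS2. Osteoclast markers rose in 2 and fell in 2 of 8 with ApoE against WT, rose in 3 and fell in 2 with AS1 and rose in 4 with AS2 against ApoE; Acp5 was 2.33 log2 units higher with AS2 than with ApoE plasma (limma adjusted p = 5.12e-11), and the summed level was 10.54 to 10.63, 11.03 to 11.27, 11.34 to 11.54 and 12.08 to 12.25 in that order, while Calcr stayed at group means of 3.82 to 3.86. With AS2 against ApoE plasma 7 of 13 neutrophil markers fell, and with ApoE against WT 2 rose and 1 fell. With ApoE against WT, 3 of 4 megakaryocyte markers rose and 1 fell. Markers of mast cells, basophils and eosinophils rose in 5 of 8 with AS1 against ApoE. Over the 3 main comparisons, dendritic cell markers rose in 4, 2 and 0 and fell in 0, 0 and 3 of 8. In the same comparisons 1, 2 and 1 of 5 B cell markers and 1, 0 and 1 of 8 T and NK cell markers were called. Stromal and endothelial markers were called in 2, 2 and 3 of 8, and erythroid markers in 0, 0 and 0 of 3. Between AS2 and AS1 plasma 3 of 5 B cell markers were called, against 22.1% of all rows. Some of these differences were large. Over the 3 main comparisons Kdr moved by 1.65, -1.74 and -1.56 log2 units and Pecam1 by -0.57, 0.97 and -1.85. Cd4 moved by 1.19, 0.24 (not called) and -1.66, and Cd79b by -0.53, 1.22 and -0.58. The call of Cd79b at -0.53 was lost without WT replicate 1, 3 or 4 or ApoE replicate 1 or 2 (limma adjusted p from 0.0651 to 0.132). It was also lost without ApoE replicates 2 and 5. Cd4 was the only T and NK cell marker called in these comparisons. The medians of that list were -0.013, 0.0016 and -0.034, and those of the B cell list 0.046, 0.15 and -0.023. Of the small RNA rows, 34 rose and 1 fell with AS2 against ApoE, and 6 rose and 4 fell with ApoE against WT.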

How the data were processed

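The deposited log2 values of 18 arrays were used as given; per the submitters' processing notes the authors made them with RMA, with no version or probe set definition stated. RMA equalises the arrays' distributions, so a shift common to all genes cannot be seen, and arrays have no read depth: their number limits the precision. Rows were named through the platform annotation (24705 with 1 symbol, 0 with several, 723 unnamed). Groups came from the labels' plasma genotype. All 4 groups entered 1 limma fit (limma 3.58.1, R 4.3.3; lmFit and eBayes, 14 residual degrees of freedom), with Benjamini-Hochberg adjustment over all named rows of each comparison. Differences between 2 forms of an enzyme were compared by exact two-sided permutation tests (scipy 1.17.1), adjusted over 6. The text names all measured members and the 5 genes nearest to each of the 3 most variable members. Of each pathway list it names up to 4 called genes of smallest p in each main comparison. Of the marker lists it names some of the 2 genes of smallest p in each main comparison. Outside these rules, Csf1r, Adgre1, Camp, Elane, Prtn3, Calcr, Pdha1 and Gapdh were picked for the text. The members and lists were chosen with earlier results of these data known. No pairing of arrays by replicate number was seen (22 same-numbered pairs, correlations of deviations from -0.21 to 0.13). Alternatives were a filter on dim rows (the lowest 40% by mean), unnamed rows kept, 1 row per gene, median centring, a repeated quantile normalization, a trended robust variance, array weights, 2 groups alone, a replicate block and arrays left out; 2, on lists with arrays left out, were added after the data were seen. The scripts were tested on simulated data.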

Additional observations from a re-analysis of the deposited data

How the results depend on the processing

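Of 54 member differences, 25 were called, 18 of these stayed called in the same direction under every alternative run, and 0 of the 25 changed sign. In the fit of 2 groups alone, 3 members in place of 5 were called for ApoE minus WT. With 1 array left out, that count ran from 3 to 5. The count of enzyme pairs called, 2, was 0 without ApoE replicates 2 and 5, 4 in a limma fit of the differences, and 0 to 2 with 1 array left out, where the exact test has fewer arrangements. Differences that changed sign were all uncalled. AS1 minus ApoE became -0.011 for Pkm both with array weights and without ApoE replicates 2 and 5. The latter also gave -0.033 for Pgk1 in AS1 minus ApoE, -0.0020 for Aldoa in AS2 minus ApoE and -0.00027 for Pfkp minus Pfkl in AS2 minus ApoE. With 1 array left out, ApoE minus WT ran from -0.029 to 0.087 for Hk1 and from -0.0011 to 0.070 for Pfkl, AS1 minus ApoE from -0.044 to 0.031 for Pkm and from -0.10 to 0.068 for Pgk1, and for Aldoa AS2 minus ApoE ran from -0.025 to 0.076 and AS2 minus WT from -0.078 to 0.020. The cause was not tested. Counts over all rows stayed within 1.5 times. A trended robust variance lost Hk2 in ApoE minus WT and AS1 minus ApoE (adjusted p = 0.0871 and 0.0554, limma). The second highest row per member was not run, since each has 1 row.

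With the replicate number as a block, 5, 4, 5, 5, 4 and 3 members were called in the 6 comparisons in place of 5, 4, 4, 5, 3 and 4. No pairing by number was seen: 4 of 22 same-numbered pairs correlated above 0.1, and 1 of 18 arrays was closest to its own number. How strongly arrays of a shared culture or day would correlate is not known. Over all rows the block gave 3945, 3748, 3475, 4874, 1891 and 3978 calls against 4177, 4088, 3857, 5467, 2343 and 4409.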
